A study of Mus musculus with 6 samples.

Results

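The 31 genes described here are enzymes and transporters of glycolysis and genes of the cellular response to low oxygen, in colon tissue of mice with chemically induced colitis. They were taken by symbol from a fixed list, and all 31 were found among the 34745 genes of the deposited expression table. By role they comprise 15 glycolytic enzymes, 2 transporters, Hif1a, and 13 HIF-only targets, that is, genes activated by hypoxia-inducible factor (HIF) that are not themselves steps of glycolysis. RNA sequencing of colon from age-matched male mice gave 6 libraries. Of these, 3 came from TRPC-hepta control mice and 3 from TRPC-hepta knockout mice, in which, according to the title of the series, all 7 members of the TRPC family of calcium-permeable cation channels are missing. Both groups had received DSS (dextran sulfate sodium, which injures the colonic epithelium) for 6 days. Libraries from mice without DSS were not analysed here, so only genotype was compared. The sources used here give neither the strain, the exact age nor the deleted part of each allele. They do not say that replicates were separate animals either, and the design text speaks of duplicates although each group has 3 libraries. The p-values reflect the spread among these 6 libraries, which may be technical.

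Glycolysis splits glucose into pyruvate in the cytosol, and lactate dehydrogenase turns pyruvate into lactate when it is not passed to mitochondria. HIF is a pair of proteins, one of which (HIF-1α, from Hif1a) is hydroxylated and destroyed in the presence of oxygen by prolyl hydroxylases encoded by Egln genes. In low oxygen it persists and switches on most glycolytic enzymes along with genes for blood vessel growth, acid handling, collagen modification and mitochondrial turnover. The colonic mucosa is known to have a steep oxygen gradient, with the lumen side poor in oxygen, so its epithelium carries HIF activity even in health. Part of HIF control acts on protein stability and is not visible in transcript counts.

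HIF binds a short core that reads ACGTG or GCGTG, on either strand. Promoter windows of 250 bases before the start site (RefSeq, build GRCm38.p6) were available for 30 of the 31 genes. Ndrg1 had no entry. For genes with several start sites (4 for Pfkm, 3 for Aldoa and Eno1), only the window nearest the 5′ end of the deposited locus was used. Some windows lay largely in annotated exons (208 of 250 bases for Pkm, 193 for Aldoa). Which start sites were in use in this tissue was not tested. Counting both strands, ACGTG was present in 9 of 12 HIF-only targets and 6 of 15 enzymes, against 17.8% of 21263 windows of protein-coding genes. GCGTG was present in 9 of 12 and 5 of 15, against 33.8%. The motifs can overlap each other, and CACGTG, which reads the same on both strands, holds ACGTG on each. The members' windows had a median GC content of 64%, against 55.6% over protein-coding genes. These are matches of letters, not binding sites. The following stretches are shown because they belong to the genes on which the results below turn: the 5 HIF-only targets with the smallest unadjusted p between the genotypes, and 2 enzymes with small fold changes. Capitals mark the motif on either strand, sequences read 5′ to 3′ on the gene's strand, and bases in annotated exons were left out except for Car9, whose only match lies in one.
Ddit4 (chr10:59951835-59952020, minus strand): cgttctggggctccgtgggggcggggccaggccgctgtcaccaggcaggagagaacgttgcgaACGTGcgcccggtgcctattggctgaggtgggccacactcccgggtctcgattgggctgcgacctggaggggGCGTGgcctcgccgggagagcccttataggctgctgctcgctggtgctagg
Adm (chr7:110627407-110627656, plus strand): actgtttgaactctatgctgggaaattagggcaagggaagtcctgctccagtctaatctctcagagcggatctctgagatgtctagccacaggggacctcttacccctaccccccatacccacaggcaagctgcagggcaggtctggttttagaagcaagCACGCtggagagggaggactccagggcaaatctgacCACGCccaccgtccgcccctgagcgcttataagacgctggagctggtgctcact
Egln3 (chr12:54203875-54204124, minus strand): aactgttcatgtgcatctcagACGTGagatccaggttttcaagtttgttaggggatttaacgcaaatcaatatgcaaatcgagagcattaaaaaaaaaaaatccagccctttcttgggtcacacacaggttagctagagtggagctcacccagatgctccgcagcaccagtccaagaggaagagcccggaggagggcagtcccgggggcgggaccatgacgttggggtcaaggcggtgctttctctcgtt
P4ha1 (chr10:59323046-59323295, plus strand): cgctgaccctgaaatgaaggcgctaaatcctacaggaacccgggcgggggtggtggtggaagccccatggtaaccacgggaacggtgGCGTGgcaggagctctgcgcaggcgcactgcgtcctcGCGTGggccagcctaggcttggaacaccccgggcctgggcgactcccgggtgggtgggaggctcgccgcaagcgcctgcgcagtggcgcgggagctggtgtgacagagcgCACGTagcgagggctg
Car9 (chr4:43506996-43507025, plus strand): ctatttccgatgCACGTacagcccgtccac
Pgk1 (chrX:106186850-106187099, plus strand): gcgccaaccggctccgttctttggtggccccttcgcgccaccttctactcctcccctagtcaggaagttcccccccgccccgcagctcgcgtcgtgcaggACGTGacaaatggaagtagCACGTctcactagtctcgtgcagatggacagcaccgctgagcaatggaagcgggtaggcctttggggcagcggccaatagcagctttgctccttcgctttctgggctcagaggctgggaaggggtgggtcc
Ldha (chr7:46845554-46845803, plus strand): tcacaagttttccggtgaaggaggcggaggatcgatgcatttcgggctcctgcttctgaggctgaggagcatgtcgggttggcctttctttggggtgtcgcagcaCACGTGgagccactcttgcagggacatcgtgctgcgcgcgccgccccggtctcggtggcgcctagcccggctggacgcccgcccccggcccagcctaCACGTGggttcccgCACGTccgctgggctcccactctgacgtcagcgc

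Ldha carried 3 separate matches, 2 of them CACGTG, and Pgk1 carried 2, while the window of Car9 held 1.

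The control libraries held 16819662 to 17584992 counted reads and the knockout libraries 13816295 to 15505327. Levels are given as CPM, counts scaled to library size with TMM normalization, when groups are compared. The deposited FPKM, which also divides by a length per gene, is given when genes are compared. That length is not stated. For Gapdh, Tpi1 and Aldoa, the counts, FPKM and library totals imply a length greater than that of the whole locus. Comparisons of FPKM between genes are therefore uncertain. Trpc4, one of the deleted channels, stood at 2.37 to 5.25 CPM in the control and 1.09 to 5.12 CPM in the knockout libraries (edgeR adjusted p = 0.735), and Trpc1 and Trpc6 were not called either (0.815 and 0.958). Whole-gene counts do not check a deletion of unknown extent, so these values do not check the labels. Knockout replicate 3 stood between the others of its group: its log2(CPM + 1) correlated across genes at r = 0.961 and 0.962 with replicates 1 and 2, which correlated at 0.890 with each other, against 0.978 to 0.983 among controls (genes are not independent replicates). Weighted least squares over the tested genes gave replicates 1 and 2 weights of 0.48 and 0.59 for its counts, and whether it is an independent sample was not tested. If it is not, n in the knockout is below 3 and the p-values are too small. The calls without it are given below.

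Summed colon epithelium markers were at 19620 to 20166 CPM in the control libraries and at 7502, 26836 and 17646 CPM in knockout replicates 1, 2 and 3, with 0 of 10 called. All 10 had reads in every library, so the markers go with the colon label. In replicate 2, 9315 CPM of that sum came from Muc2, the mucin of goblet cells. Fibroblast markers were at 779.7 to 1027 CPM against 3206, 773.9 and 1905 CPM (0 of 6 called) and endothelium markers at 62.3 to 79.7 against 217.5, 58.2 and 133.0 CPM (0 of 6). Of 8 smooth muscle markers 4 fell, with a sum of 8195 to 11772 CPM against 1705 to 3686 CPM. Of 6 neutrophil markers 4 rose, from 2.14 to 2.74 CPM in all to 35.5 to 266.0 CPM, and of 6 monocyte and macrophage markers 2 rose, from 110.1 to 129.5 CPM to 266.9 to 317.8 CPM. Among the neutrophil genes, Cxcr2 and Retnlg had 0 reads in all control libraries. No marker in these 6 lists had 0 reads in all libraries. Red blood cell markers summed to 1.62 to 5.77 CPM against 5.62 to 33.9 CPM (0 of 3 tested called), and of 3 tested skeletal muscle markers 1 fell. The part of cell composition in the results below was not tested, and in bulk tissue fewer cells of a type and less RNA per cell cannot be told apart.

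The comparison of genotypes asked whether transcripts of glycolysis and of the hypoxia response differ between knockout and control colon under DSS. Of the 15 enzymes, 14 had intervals within 1 log2 unit of equality, and Pfkfb3, with the largest fold change of all members, did not. Of the 13 HIF-only targets, 6 were higher and 2 lower in every knockout library than in any control, and 5 had intervals within 1 log2 unit. No single member passed the threshold: 0 of 31 had an adjusted p under 0.05 in edgeR's quasi-likelihood test, against 1.76% of all 15819 genes tested. The smallest adjusted p was 0.0555, for Ddit4. At an unadjusted p under 0.05 there were 8 higher and 2 lower members (9.48% and 6.5% of all genes). DESeq2 called 7 of the 31, namely Slc16a3, Bnip3, Egln3, Adm, P4ha1 and Ddit4 as higher and Car9 as lower, where it called 9.19% of all genes. In CPM the groups did not overlap for 10 members that were higher and 2 that were lower (11.2% and 10.4% of all genes). All 31 passed the filter on low counts.

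**Figure D1:**
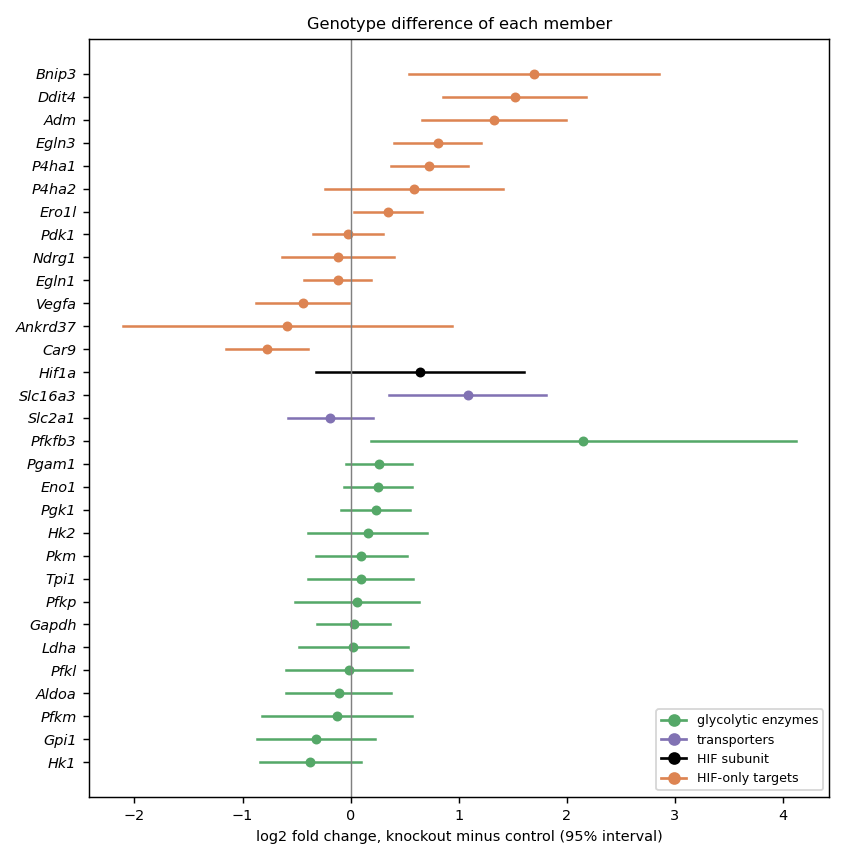
Log2 fold change of each gene, knockout minus control (points), with the 95% interval from edgeR's quasi-likelihood fit (lines), for 3 against 3 libraries and ordered by size within each role. Among enzymes 14 of 15 intervals lie within 1 log2 unit of 0, with Pfkfb3 as the exception, while HIF-only targets run from -0.77 (Car9) to 1.70 (Bnip3).

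In the control, transcript levels along the pathway differed widely by gene. By deposited FPKM, Pkm, the pyruvate kinase that makes pyruvate, was the highest at 374.2 ± 27.5 FPKM (SD, n = 3). Ldha, which reduces pyruvate to lactate, followed at 219.8 ± 3.6 FPKM. Aldoa, which cleaves fructose bisphosphate, stood at 155.1 ± 10.8 FPKM. Below these came Tpi1, which interconverts the triose phosphates (98.7 ± 8.6 FPKM), and Pgk1 (95.3 ± 4.2 FPKM) and Pgam1 (86.8 ± 6.4 FPKM), a kinase and a mutase of phosphoglycerate. The neighbours Tpi1, Pgk1 and Pgam1 differed by less than 2 SD, so their order is not firm. Hk2 followed at 62.8 ± 17.0 FPKM and Gpi1 at 53.9 ± 2.7 FPKM, again within their spread, then Pfkl at 36.3 ± 6.7 FPKM. Pfkp and Hk1 stood at 19.4 ± 1.6 and 19.0 ± 3.3 FPKM, and Pfkm at 9.06 ± 0.39 FPKM. Gapdh, which oxidises glyceraldehyde phosphate, and Eno1, an enolase, stood at 12.8 ± 1.4 and 11.4 ± 0.60 FPKM. Pfkfb3 was lowest at 1.34 ± 0.48 FPKM. For Eno1 a near-identical retrotransposed copy, Eno1b, had more reads than the gene itself (2509, 2795 and 2337 against 1580, 1592 and 1428 in the control libraries). The sources used here do not say how reads matching several copies were counted, so the levels of Eno1 and of Gapdh, which also has many pseudogene copies, are uncertain. The length implied by the FPKM of Gapdh is also greater than its locus, so its low place in this order is not firm.

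**Figure D2:**
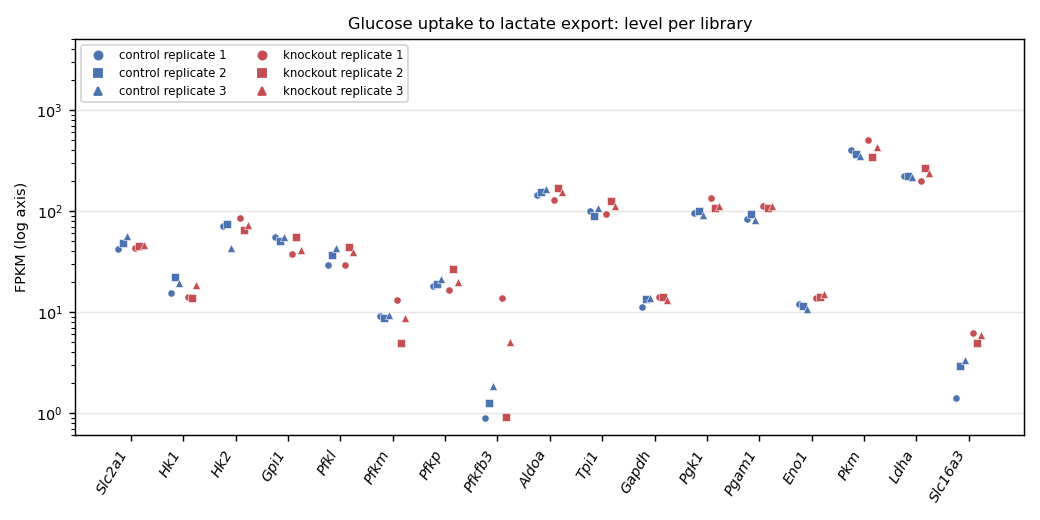
FPKM (log axis) of the genes from glucose uptake to lactate export in each of 3 control (blue) and 3 knockout (red) libraries, with 1 point per library. Groups lie on top of each other for most enzymes, while Slc16a3 is higher in every knockout library and Pfkfb3 spreads from 0.904 to 13.7 FPKM within the knockout.

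No enzyme of the upper steps of glycolysis was called, and each interval given here held 0 as well as sizeable differences. Hk2, the inducible hexokinase that traps glucose, was at 508.7, 514.3 and 303.9 CPM in the control and 526.5, 474.0 and 478.6 CPM in the knockout libraries, with a log2 fold change of 0.16 (95% interval -0.40 to 0.71, edgeR adjusted p = 0.802). Hk1, the constitutive hexokinase, was at 199.7, 279.0 and 246.0 against 156.0, 182.3 and 221.6 CPM, the lowest fold change of the enzymes (-0.37, interval -0.84 to 0.095). In both genes the groups overlapped. Gpi1, the isomerase that follows, stood at 528.6, 472.7 and 518.0 against 313.4, 541.0 and 362.4 CPM (-0.32, interval -0.87 to 0.23). Knockout replicates 1 and 3 were low and replicate 2 was above every control. The phosphofructokinases, which commit the sugar to glycolysis, had log2 fold changes of -0.011 (Pfkl), -0.13 (Pfkm) and 0.061 (Pfkp), with adjusted p of 0.989, 0.874 and 0.933 (edgeR). Their intervals ran from -0.59 to 0.57, -0.82 to 0.56 and -0.51 to 0.63, so differences of those sizes could not be told from equality. Pfkm was at 28.3, 25.9 and 28.3 CPM in the control and 35.2, 15.4 and 24.9 CPM in the knockout libraries.

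At the lower steps, 3 enzymes were slightly higher in every knockout library than in any control, as were 11.2% of all genes, and 5 overlapped. Pgk1 was at 300.0, 309.5 and 286.1 CPM in the control and 373.0, 346.7 and 331.6 CPM in the knockout (log2 fold change 0.23, interval -0.086 to 0.55, edgeR adjusted p = 0.463). Pgam1 stood at 159.9, 175.3 and 154.4 against 185.0, 206.0 and 196.5 CPM (0.26, interval -0.042 to 0.57, adjusted p = 0.381). Eno1 was at 97.6, 92.1 and 86.8 against 97.8, 116.4 and 115.7 CPM (0.25, interval -0.062 to 0.57, adjusted p = 0.415). In these 3 genes every knockout library was above every control, though for Eno1 the margin was under 1 CPM. Aldoa, Tpi1, Gapdh, Pkm and Ldha overlapped between groups, with log2 fold changes of -0.11, 0.093, 0.029, 0.10 and 0.026. The interval for Ldha ran from -0.48 to 0.53, so a difference of that size in either direction could not be told from equality.

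Pfkfb3 stood apart from the enzymes of the main chain. It makes fructose 2,6-bisphosphate, the strongest activator of phosphofructokinase, and is itself induced by hypoxia and by inflammatory signals. Its values were 17.7, 24.1 and 35.9 CPM in the control and 234.9, 18.1 and 93.0 CPM in the knockout libraries. Knockout replicate 1 was far above all controls, replicate 3 above them and replicate 2 within their range. The log2 fold change of 2.15 (4.45-fold) had an interval of 0.19 to 4.12 and an adjusted p of 0.269 (edgeR). Without knockout replicate 1 it was 1.10 (adjusted p = 0.480), and without replicate 2 it was 2.66 (adjusted p = 0.0158). The fit without replicate 2 called 11.2% of all genes, against 1.76% with all libraries.

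The 2 transporters differed. Slc2a1 (GLUT1), which admits glucose, was at 227.6, 258.4 and 299.1 CPM in the control and 203.8, 251.5 and 234.3 CPM in the knockout libraries (log2 fold change -0.19, interval -0.58 to 0.20, edgeR adjusted p = 0.647). Slc16a3 (MCT4), which exports lactate from glycolytic cells, stood at 12.8, 25.8 and 30.02 against 49.0, 46.1 and 50.2 CPM. Every knockout library exceeded every control and the knockout libraries were tightly grouped, while control replicate 1 was low. The log2 fold change was 1.08 (2.12-fold, interval 0.35 to 1.81, adjusted p = 0.149), and it was 0.79 without control replicate 1.

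Among the regulators, Hif1a was at 174.4, 209.0 and 99.4 CPM in the control and 358.9, 139.7 and 255.3 CPM in the knockout libraries. Knockout replicates 1 and 3 were above all controls, but replicate 2 was among them (log2 fold change 0.64, interval -0.32 to 1.60, edgeR adjusted p = 0.503). Egln3, a prolyl hydroxylase that HIF itself induces and that acts on HIF-1α, stood at 73.5, 105.2 and 101.6 CPM against 162.4, 166.0 and 162.3 CPM. The groups did not overlap, and the knockout libraries differed by less than 4 CPM (log2 fold change 0.81 ± 0.17 SE, 1.75-fold, adjusted p = 0.0748). Egln1, the main prolyl hydroxylase of HIF-1α in normal oxygen, was at 74.1, 78.8 and 76.0 against 78.4, 63.9 and 68.3 CPM, with overlapping groups (-0.12, interval -0.43 to 0.19, adjusted p = 0.720).

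Several HIF-only targets had higher means in the knockout without passing the threshold. Ddit4 (REDD1), a stress-induced inhibitor of mTORC1 signalling, was at 41.9, 42.6 and 46.1 CPM in the control and 175.8, 81.9 and 116.5 CPM in the knockout libraries. All knockout libraries were well above the controls, though they spread among themselves (log2 fold change 1.52 ± 0.28 SE, 2.87-fold, edgeR adjusted p = 0.0555). Adm, which encodes the vasodilator peptide adrenomedullin, stood at 7.04, 4.51 and 7.60 against 19.3, 12.6 and 16.1 CPM, again without overlap (1.33 ± 0.28 SE, 2.51-fold, adjusted p = 0.0752). Bnip3, a mitochondrial protein that promotes mitophagy, was at 23.5, 17.3 and 22.9 against 114.1, 27.1 and 64.9 CPM (1.70 ± 0.49 SE, 3.24-fold, adjusted p = 0.154). Knockout replicate 2 was only just above the highest control for Bnip3, and without knockout replicate 1 the log2 fold change was 1.12. Its edgeR adjusted p without knockout replicate 2 was 0.00842, in a fit that called 11.2% of all genes, against 1.76% with all libraries.

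The collagen prolyl 4-hydroxylases and the oxidase Ero1l serve protein folding in the endoplasmic reticulum. P4ha1, a catalytic subunit that hydroxylates collagen, was at 32.7, 38.6 and 35.4 CPM in the control and 55.1, 67.5 and 54.4 CPM in the knockout libraries. The groups were clearly apart and both were compact (log2 fold change 0.73 ± 0.15 SE, 1.66-fold, edgeR adjusted p = 0.0730). P4ha2, its paralog, stood at 13.1, 14.1 and 12.2 against 26.1, 10.1 and 23.0 CPM, with knockout replicate 2 below all controls (0.59, interval -0.24 to 1.41, adjusted p = 0.476). Ero1l, which supplies oxidising power for disulfide bonds, was at 78.2, 80.3 and 93.4 against 102.9, 113.5 and 104.1 CPM, without overlap (0.35, interval 0.035 to 0.66, adjusted p = 0.263).

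Other HIF-only targets were lower or level. Car9, a membrane carbonic anhydrase that handles acid at the cell surface and is a widely used hypoxia marker, was at 96.6, 99.3 and 85.2 CPM in the control and 46.5, 63.9 and 54.2 CPM in the knockout libraries. Every knockout library was below every control (log2 fold change -0.77 ± 0.16 SE, edgeR adjusted p = 0.0730). Vegfa, the main growth factor of blood vessels, stood at 82.5, 75.0 and 94.6 against 74.0, 51.1 and 60.2 CPM (-0.44, interval -0.87 to -0.017, adjusted p = 0.289). Its groups were separated by about 1 CPM. Ankrd37, an ankyrin-repeat protein, was at 9.89, 11.7 and 40.6 against 6.69, 20.2 and 14.5 CPM, and its log2 fold change of -0.59 became 0.35 without control replicate 3. Pdk1 limits the use of pyruvate in mitochondria by phosphorylating pyruvate dehydrogenase, and Ndrg1 is a stress-responsive differentiation gene. Pdk1 and Ndrg1 overlapped between groups, at -0.024 (interval -0.35 to 0.30) and -0.11 (interval -0.63 to 0.41).

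**Figure D3:**
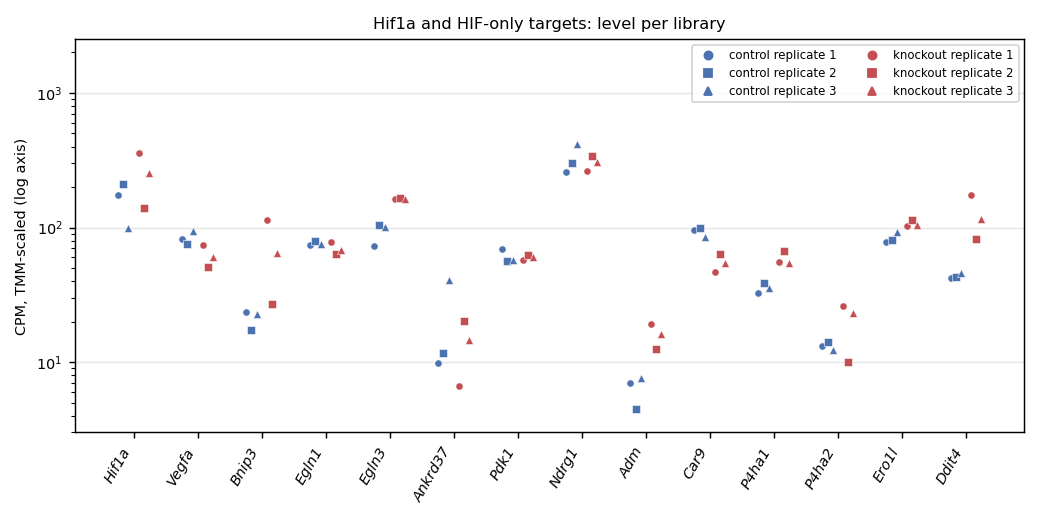
CPM (log axis) of Hif1a and the 13 HIF-only targets in each of 3 control (blue) and 3 knockout (red) libraries, with 1 point per library. Ddit4, Adm, Egln3, P4ha1, Bnip3 and Ero1l are higher and Car9 and Vegfa lower in every knockout library than in any control, and Bnip3, P4ha2 and Hif1a spread widely within the knockout.

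Set against each other, the enzymes had a median log2 fold change of 0.061 and the HIF-only targets 0.35, where the median of all genes tested was 0.014. Of the enzymes 10 and of the HIF-only targets 7 had positive fold changes, as did 51.6% of all genes. Per library, the median deviation of the HIF-only targets from the control mean was 0.30, 0.24 and 0.31 log2 units in knockout replicates 1, 2 and 3, and -0.041, -0.059 and 0.12 in the controls. For the enzymes it was -0.042, 0.18 and 0.031 in the knockout and 0.0079, 0.00035 and 0.039 in the controls. The HIF-only median was thus above all controls in each knockout library, and the enzyme median was so only in replicate 2. The reference was the mean of these same controls, which holds the controls near 0, while the knockout libraries share the error of that mean. No test was made of this contrast between lists, and the HIF-only median hides members that lay on opposite sides of 0.

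**Figure D4:**
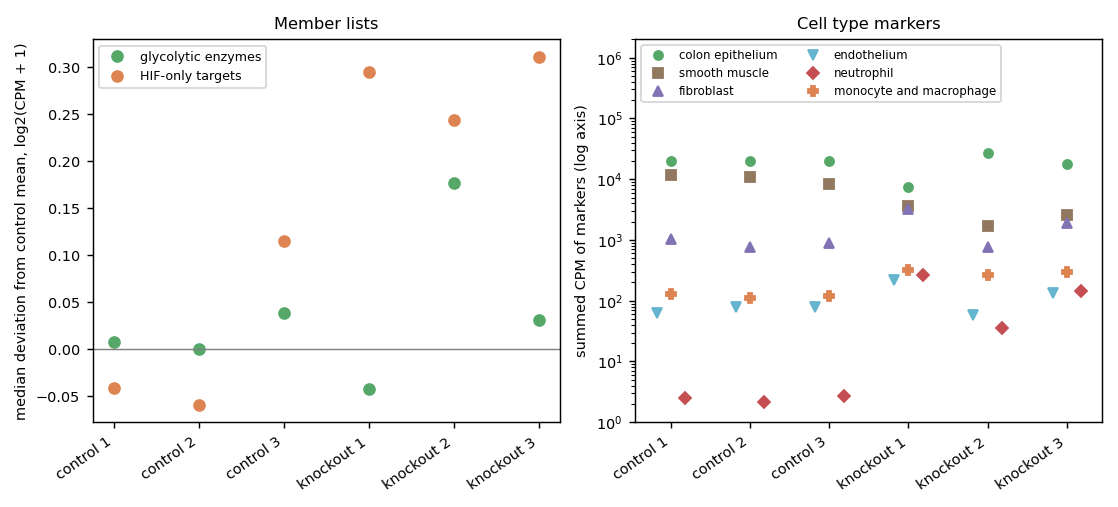
Left, the median deviation of the 15 enzymes (green) and 13 HIF-only targets (orange) from the control mean in log2(CPM + 1), for each of the 6 libraries. Right, the summed CPM of markers of 6 cell types (log axis), in which epithelium markers are lowest in knockout replicate 1 (7502 CPM) and highest in replicate 2 (26836 CPM), the reverse of the order of fibroblast, endothelium and neutrophil markers.

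Within the knockout, members fell into opposite orders, as did genes in general, so the orders are not particular to these members. Knockout replicate 1 was lowest and replicate 2 highest for 14 members, among them 8 enzymes (Gpi1, Pfkl, Pfkp, Aldoa, Tpi1, Pgam1, Eno1 and Ldha), Slc2a1 and 5 HIF-only targets (Ankrd37, Pdk1, Ndrg1, Car9 and Ero1l). Of the 10 epithelium markers 9 had that order too (Slc26a3 had the opposite one), and so did 36.2% of all genes. Replicate 1 was highest and replicate 2 lowest for 11 members, namely Hk2, Pfkm, Pfkfb3, Pkm, Hif1a, Vegfa, Bnip3, Egln1, Adm, P4ha2 and Ddit4, as for all 6 fibroblast, 6 endothelium and 6 neutrophil markers (35.8% of all genes). For Ldha, replicates 1, 2 and 3 were at 814.6, 1291 and 1058 CPM around controls of 1015 to 1054 CPM. For Pkm they were at 1187, 941.1 and 1087 CPM around controls of 932.9 to 1092 CPM. The controls of Ldha differed by less than 40 CPM, so the spread of the knockout libraries was much the larger.

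Leaving out single knockout libraries moved the calls. Without replicate 2, 8 members were past the threshold (Pfkfb3, Bnip3, Egln3, Adm, P4ha1, P4ha2 and Ddit4 higher, Car9 lower), against 11.2% of all genes. Without replicate 1 it was Ddit4 alone (log2 fold change 1.19, edgeR adjusted p = 0.0357), against 1.99% of all genes. Without replicate 3, which lay between the others, 0 were past it, against 0.093% of all genes, with 7 members at an unadjusted p under 0.05 in edgeR. Ddit4 then had a log2 fold change of 1.57 and an adjusted p of 0.199.

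Isozyme composition was read as the share of each gene in the summed FPKM of its relatives among the 31 genes, so that other isozymes (Egln2, for example) are not counted. The shares depend on the unit. In the control, Pfkl held a mean of 55.8% and Pfkp 30.1% by FPKM, against 40.6% and 53.2% by CPM. By CPM the mean Egln3 share was 54.7% in the control and 70.0% in the knockout, also without overlap. Of the pair Egln1 and Egln3, Egln3 made up 56.7%, 63.8% and 63.8% in the control and 73.2%, 77.4% and 75.8% in the knockout libraries, without overlap between the groups (61.4% ± 4.1 and 75.5% ± 2.1, SD, n = 3 each). Hk2 held 76.0% ± 6.6 of the hexokinase pair in the control and 82.6% ± 3.2 in the knockout, with overlap. The knockout libraries differed from each other in Pfkm, the muscle-type phosphofructokinase, at 22.2%, 6.51% and 12.9% against 12.8% to 16.3% in the control. Smooth muscle markers summed to 3686, 1705 and 2589 CPM in those libraries and to 8195 CPM or more in the controls. Replicate 1 was highest and replicate 2 lowest of the knockout in CPM for 35.8% of all genes. A link between muscle content and the Pfkm share was not tested. P4ha2, like Pfkm, was lowest in knockout replicate 2. It held 10.3% of its pair there, against 21.0% to 23.6% in the control and 24.6% to 26.7% in the other knockout libraries.

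**Figure D5:**
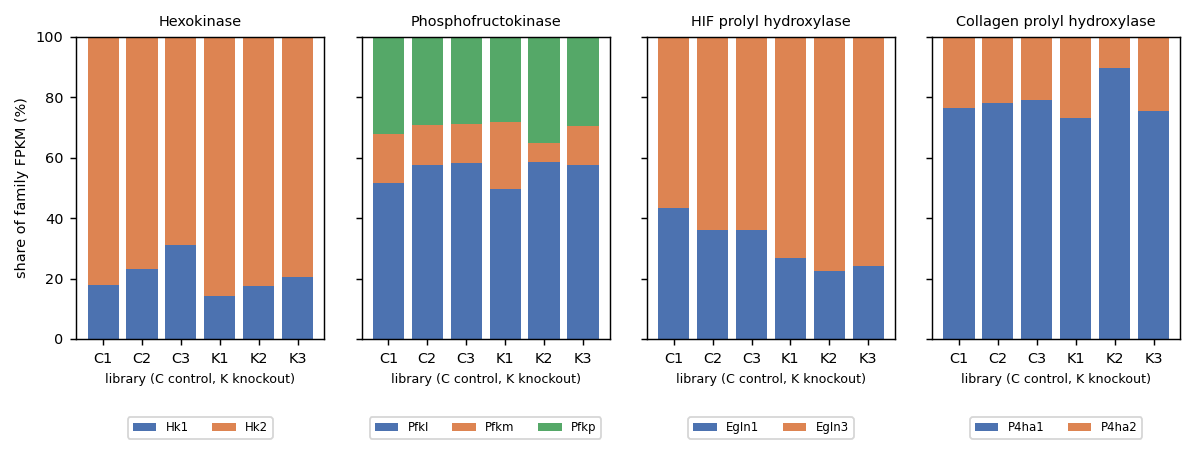
Share of each gene in the summed FPKM of its family (%), per library (C1 to C3 control, K1 to K3 knockout). The Egln3 share is larger, and the Egln1 share smaller, in all 3 knockout libraries than in any control, whereas the shares in the other 3 families overlap between groups, with Pfkm and P4ha2 smallest in knockout replicate 2.

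Other genes of the same pathways are given from lists with no member in common with the 31. Of 17 tested glycolytic isozymes and transporters 1 rose and 0 fell, where 1.76% of all genes were called: Hk3, the hexokinase typical of myeloid cells, went from 1.297, 0.578 and 0.912 CPM to 4.72, 7.15 and 4.55 CPM (log2 fold change 2.55 ± 0.40 SE, edgeR adjusted p = 0.0371). Neutrophil and macrophage markers were higher in the same libraries, and whether Hk3 followed the content of such cells was not tested. Knockout replicate 2 had the highest Hk3 of the knockout and the lowest marker sums, at 35.5 CPM (neutrophil) and 266.9 CPM (macrophage). In replicates 1 and 3 these sums were 266.0 and 144.0 CPM, and 317.8 and 294.1 CPM. Outside the rule for named genes, and chosen after their values were seen, are Slc16a1 (MCT1), a monocarboxylate carrier of colonocytes, and Hkdc1, a hexokinase relative. Slc16a1 was at 316.3, 277.7 and 250.3 CPM in the control and 198.7, 200.2 and 195.4 CPM in the knockout libraries (-0.51 ± 0.14 SE, adjusted p = 0.147), the opposite direction to Slc16a3. Hkdc1 was at 66.6, 53.7 and 143.0 against 1.44, 31.7 and 15.0 CPM (-2.46 ± 0.94 SE, adjusted p = 0.269).

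Of 35 other HIF targets tested, 3 rose and 0 fell, where 1.76% of all genes were called. Hilpda, a lipid droplet protein that slows fat breakdown in hypoxia, went from 4.26, 6.07 and 7.41 CPM in the control to 22.5, 22.0 and 22.5 CPM in the knockout libraries (log2 fold change 1.92 ± 0.24 SE, edgeR adjusted p = 0.0220). Angptl4, an inhibitor of lipoprotein lipase, went from 3.58, 5.67 and 5.71 to 58.5, 15.8 and 35.2 CPM (2.87 ± 0.49 SE, adjusted p = 0.0473). Cxcr4, the receptor for the chemokine CXCL12, went from 3.71, 3.88 and 4.01 to 10.4, 8.97 and 9.35 CPM (1.31 ± 0.21 SE, adjusted p = 0.0371). Leaving out any single control library, or knockout replicate 3, ended the call of all 4 genes, Hk3 included. Leaving out knockout replicate 1 ended that of Cxcr4 (edgeR adjusted p = 0.0589). Angptl4 was not past the threshold with library totals (adjusted p = 0.0605) or by limma on log2(FPKM + 1) (0.0988) and log2(FPKM + 0.1) (0.0731), and under a replicate block none of the 4 was (0.0998 to 0.174). The median log2 fold change of these 35 targets was 0.43, and 25 were positive, against 51.6% of all genes.

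None of the other 3 pathway lists held a called gene by edgeR, where 1.76% of all genes were called. At an unadjusted p under 0.05 in edgeR, 9.48% of all genes were higher and 6.5% lower. Of 7 gluconeogenesis genes, Fbp1, a fructose bisphosphatase, and Slc37a4, the glucose 6-phosphate translocase, had the smallest p, with log2 fold changes of 1.55 and -0.45 (edgeR adjusted p = 0.148 and 0.256; 2 of 7 at an unadjusted p under 0.05). Of 12 genes for pyruvate entry into mitochondria or its use there 10 had negative fold changes, where 51.6% of all genes had positive ones. Pdk2 (-0.44, edgeR adjusted p = 0.288) and Pdp2 (-0.72, adjusted p = 0.434) had the smallest p, and 1 gene was at an unadjusted p under 0.05. The median deviation of this list from the control mean was -0.28, 0.040 and -0.12 log2 units in knockout replicates 1, 2 and 3, so replicate 2 did not share the drop. Of 10 HIF pathway components, Cited2, which competes with HIF for its coactivators, was at -0.56 (adjusted p = 0.197) and Epas1, which encodes HIF-2α, at 0.36 (adjusted p = 0.400), with 1 at an unadjusted p under 0.05.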

How the data were processed

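Total RNA came from flash-frozen colon purified on Qiagen columns, per the labels' protocols. The deposited table gives, per the file headers, read counts and FPKM for 6 libraries. The counts are whole numbers, not normalized by the authors. In FPKM deposited by the authors, the ratio to counts followed column totals, up to 1 factor per gene, within 0.001 log2 units for 100% of 11507 genes checked. Tools listed, per the submitters' processing notes, are edgeR, StringTie 1.3.0 and HISAT2 2.0.4, with GRCh38 and mm8 as builds and no roles stated. Coordinates were taken as GRCm38, since 80.8% of 34267 gene identifiers shared start and end with GENCODE M21. The strand setting and the handling of multi-mapping reads are not given. Exons of 14 members overlap another gene's (up to 748 bases, Pfkp with Pitrm1), so these counts may mix.

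Knockout was tested against control with edgeR 4.0.16 (R 4.3.3; TMM, its low-count filter, quasi-likelihood test, two-sided, no block) over all 15819 genes passing the filter, adjusted by Benjamini-Hochberg, and called under 0.05. Standard errors were derived from the test statistic, and 95% intervals use its degrees of freedom. Alternatives were DESeq2 1.42.0, RLE, no filter, limma 3.58.1 on log2(FPKM + 1) and log2(FPKM + 0.1), a replicate block, each library left out, and library totals (chosen after seeing the data). Scripts were tested on simulated counts. Promoter windows are RefSeq's (GRCm38.p6). Members, lists and the naming rule (all 31; elsewhere up to 4 called genes by smallest p, or else 2) were chosen with earlier results of these data known. Isozyme shares were not tested and are given as a description.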

Additional observations from a re-analysis of the deposited data

How the results depend on the processing

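No pairing by replicate number was visible (correlation of same-numbered deviations 0.054, -0.172 and 0.003, against -0.202 to 0.196 for other pairs). With 3 libraries per group, such values cannot show whether a litter or day was shared. With the replicate block 0 members, 0 other pathway genes and 9 of all genes were past the threshold. Members past it numbered 7 by DESeq2, 1 without the low-count filter (Ddit4), 1 with library totals (P4ha1), 2 by limma on log2(FPKM + 0.1) (P4ha1 and Car9), 0 by limma on log2(FPKM + 1) and by RLE, and 0 to 8 with 1 library left out. DESeq2 called 1453 genes in all and 12 of the other pathway genes. With 1 library left out the counts were 15 to 1825 of all genes and 0 to 13 of the other pathway genes, against 278 and 4.

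The enzymes' median of 0.061 ran from -0.054 (without knockout replicate 2) to 0.17 (without knockout replicate 1). The HIF-only median of 0.35 ran from 0.29 to 0.43 with 1 library left out and was 0.42 with library totals, 0.39 by limma on log2(FPKM + 1) and 0.42 on log2(FPKM + 0.1). Signs turned for 11 uncalled members, with fold changes near 0 except Ankrd37 (-0.59). With library totals and limma at either pseudocount, Pfkl became 0.045, 0.040 and 0.041, and Pdk1 0.051, 0.046 and 0.054. With 1 library left out the ranges crossing 0 were -0.059 to 0.27 for Hk2, -0.22 to 0.17 for Pfkl, -0.45 to 0.12 for Pfkm, -0.22 to 0.24 for Pfkp, -0.27 to 0.032 for Aldoa, -0.085 to 0.24 for Tpi1, -0.056 to 0.083 for Gapdh, -0.15 to 0.18 for Ldha, -0.97 to 0.35 for Ankrd37, -0.088 to 0.072 for Pdk1 and -0.26 to 0.10 for Ndrg1. The cause was not tested, except that fewer samples were fitted. A gene with 3 counts in a library is at 0.174 to 0.219 CPM, far below every member here.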
